A study of Mus musculus with 20 samples.

Results

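The early growth response (EGR) family consists of 4 genes, Egr1, Egr2, Egr3 and Egr4, which were found in the count table by gene symbol. They are 4 of 45706 genes in the table, and all 4 were among the 14023 genes that passed the filter on low counts (a level of 1 or more in 2 or more libraries, in CPM, counts scaled to library size). RNA was sequenced from primary mouse embryonic fibroblasts of C57BL/6 origin, connective tissue cells taken from embryos. The study asked how target genes of RelA, a subunit of the transcription factor NF-kB, are switched on in an inflammatory response. Both genotypes lacked c-Rel, another NF-kB subunit: the control was crel-/-, and the other genotype, called the knock-in below, was crel-/-RelA-TA-KI, which also carries an altered allele at the RelA locus. The labels do not spell out TA or name the residues changed. After a night in 0.5% serum, cells of each genotype were either left without agent (0 h) or given interleukin 1 beta (IL-1b, 10 ng/ml), bacterial lipopolysaccharide (LPS, 100 ng/ml) or tumour necrosis factor (TNF, 10 ng/ml) for 0.5, 1 or 3 h. Each of the 20 combinations is 1 library, and no library at 0.5, 1 or 3 h was left without agent. The 2 genotypes served as replicates for the responses, and conditions served as replicates for the genotype difference. The labels name no separate cultures, so each p-value below reflects the spread between these libraries, which may in part be technical.

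EGR proteins are zinc finger transcription factors that bind GC-rich sites. Their genes are immediate early genes, transcribed within minutes of a stimulus without new protein synthesis, largely through the kinase ERK acting on serum response factor (SRF) and its ETS-type partners at the promoter. The co-repressors NAB1 and NAB2 bind EGR1, EGR2 and EGR3 and limit their activity, and NAB2 is itself an EGR target. In fibroblasts EGR1 is known for its part in growth, matrix and wound responses, and EGR2 is best known for myelination by Schwann cells.

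Libraries held 9248151 to 12574135 counts. Fibroblast markers were abundant in all libraries, with Col1a1 at 18300 to 28800 CPM, and macrophage markers were also present in all of them (Csf1r at 195 to 644 CPM, Adgre1 at 187 to 541 CPM and Ptprc at 65.7 to 209 CPM). The 8 libraries of 0 h and TNF stood apart from the 12 of IL-1b and LPS. The summed level of 13 Schwann cell and neural crest markers was 61.4 to 115 CPM in the former and 24.5 to 50.6 CPM in the latter. That of 8 skeletal muscle markers was 21.8 to 28.9 and 7.73 to 17.5 CPM, and neither pair of ranges overlapped. Per library, 4 to 6 of the muscle markers were at 0 in the former and 3 to 7 in the latter. Myod1 was at 0 in 19 libraries and Myog in 13, so the sum is not read as muscle cells. The ranges of 15 macrophage markers overlapped, at 4610 to 6090 and 2990 to 4800 CPM. Sox10 lay between 0.0967 and 2.88 CPM. The part of these marker differences in the EGR values was not tested. Where IL-1b or LPS is set against 0 h or TNF, the agent and this state cannot be told apart. Responses to TNF, which share this state with the 0 h libraries, are given separately where they differ. In bulk RNA, fewer cells of a type and less RNA per cell cannot be told apart.

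Egr1 (ENSMUSG00000038418.7, chromosome 18, 34859823 to 34864984, plus strand, mm10) encodes the best studied member and had the most counts. At 0 h it stood at 115 CPM in crel-/- and 121 CPM in knock-in cells. At 0.5 h it stood at 1240 and 1010 CPM (crel-/- and knock-in, in that order from here on) with IL-1b, at 1040 and 1160 CPM with TNF, and at 660 and 718 CPM with LPS. The IL-1b and TNF levels overlapped, and both LPS libraries lay below them. At 1 h the IL-1b libraries stood at 84.8 and 98.4 CPM and the TNF libraries at 74.4 and 98.7 CPM, all 4 below both 0 h libraries. With LPS, Egr1 was at 545 and 189 CPM at 1 h and at 343 and 505 CPM at 3 h, above 0 h in each. The 3 h levels were 87.6 and 78 CPM with IL-1b and 151 and 660 CPM with TNF. The knock-in TNF library was as high as the crel-/- LPS library at 0.5 h.

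Egr2 (ENSMUSG00000037868.13, chromosome 10, 67535475 to 67542188, plus strand), the myelination regulator, stood at 9.28 and 8.24 CPM at 0 h. At 0.5 h it was at 154 and 119 CPM with IL-1b, 119 and 146 CPM with TNF and 60.8 and 53.4 CPM with LPS, in the same order of agents as Egr1. Unlike Egr1, it stayed above its 0 h level in all 6 libraries at 1 h, at 18.6 and 18 CPM with IL-1b, 22.5 and 21.4 CPM with TNF and 47.5 and 19.3 CPM with LPS. At 3 h it was at 4.63 and 5.11 CPM with IL-1b, below both 0 h libraries. The LPS libraries stood at 12.3 and 20 CPM and the TNF libraries at 11.5 and 59.6 CPM, so that the knock-in TNF library was again the highest at 3 h.

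Egr3 (ENSMUSG00000033730.3, chromosome 14, 70077445 to 70080157, plus strand), whose protein binds the same sites as EGR1, stood at 4.2 and 5.01 CPM at 0 h. At 0.5 h it was at 120 and 69.8 CPM with IL-1b, 83.6 and 78.3 CPM with TNF and 25.8 and 32.7 CPM with LPS. At 1 h it was still at 94.7 and 49 CPM with IL-1b, 64.3 and 48.4 CPM with TNF, and 52.9 and 33 CPM with LPS. Within each agent, the ranges over the 2 genotypes at 0.5 and 1 h overlapped for IL-1b, but both TNF libraries were lower at 1 h than at 0.5 h. With LPS the level rose in crel-/- cells (25.8 to 52.9 CPM) and hardly changed in knock-in cells (32.7 to 33 CPM). At 3 h Egr3 stood at 9.55 and 3.83 CPM with IL-1b, 28.7 and 17.3 CPM with LPS, and 6.69 and 45.6 CPM with TNF. The authors' table gives Egr3 an exon length of 1416 bases, while the GENCODE M21 model is 4406 bases long, so reads in the rest of that transcript may be missing from its counts.

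Egr4 (ENSMUSG00000071341.4, chromosome 6, 85511121 to 85513589, minus strand), the least abundant member, had 4 and 2 counts at 0 h. At 0.5 h it had 201 and 52 counts with IL-1b (20 and 4.65 CPM), 172 and 78 counts with TNF (12.7 and 6.58 CPM) and 24 and 14 counts with LPS (2.18 and 1.35 CPM). At 1 h it had 153 and 42 counts with IL-1b (12.3 and 3.74 CPM), 87 and 49 with TNF (8.09 and 4.14 CPM) and 13 and 10 with LPS (1.27 and 1.07 CPM). The crel-/- library was the higher in each of these 6 pairs, though the LPS counts at 1 h are too close to give a direction. At 3 h it had 0 and 2 counts with IL-1b, 2 and 3 with LPS, and 5 and 50 with TNF. The count of 0 allows up to 0.289 CPM (3 counts of that library's total, before TMM scaling and from counting error alone), so 3 h levels outside the knock-in TNF library were at or near the floor.

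RefSeq promoter windows (250 bases before to 50 bases after a start site, GRCm38.p6) are shown for Egr2 and Egr4, read 5′ to 3′ on the gene's strand. Windows of Egr1 and Egr3 were not analysed here. Motifs were searched on both strands, and capitals mark a match to the CArG box, the SRF binding motif, in the Egr2 windows and to the NF-kB site in the Egr4 window.
Egr2, chr10:67537620-67537919, plus strand: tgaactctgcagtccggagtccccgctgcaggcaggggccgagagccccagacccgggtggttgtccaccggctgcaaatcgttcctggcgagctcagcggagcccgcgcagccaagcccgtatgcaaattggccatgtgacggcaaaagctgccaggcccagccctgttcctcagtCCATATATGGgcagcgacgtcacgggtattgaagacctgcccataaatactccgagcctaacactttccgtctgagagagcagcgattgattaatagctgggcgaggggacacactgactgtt
Egr2, chr10:67537316-67537615, plus strand: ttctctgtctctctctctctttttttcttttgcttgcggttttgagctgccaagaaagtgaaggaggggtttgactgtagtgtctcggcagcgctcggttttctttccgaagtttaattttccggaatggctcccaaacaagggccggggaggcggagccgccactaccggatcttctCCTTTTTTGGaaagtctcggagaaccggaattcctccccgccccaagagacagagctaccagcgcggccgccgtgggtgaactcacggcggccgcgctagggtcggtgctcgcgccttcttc
Egr4, chr6:85513540-85513839, minus strand: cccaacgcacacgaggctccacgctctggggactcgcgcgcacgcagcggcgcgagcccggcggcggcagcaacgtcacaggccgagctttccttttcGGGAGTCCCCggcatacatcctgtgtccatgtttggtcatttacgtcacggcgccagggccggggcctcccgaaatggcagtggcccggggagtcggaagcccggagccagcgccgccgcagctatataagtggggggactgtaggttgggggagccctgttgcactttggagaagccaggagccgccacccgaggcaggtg
A CArG box began 73 bases before the start site in the first Egr2 window and 72 bases before it in the second, and 1.63% of 32851 windows of 27025 genes hold such a match. A further Egr2 window, chr10:67535249-67535548, held no match to any of the motifs searched, and the other Egr2 windows overlap the first one shown. The Egr4 window held no CArG box and an NF-kB site match that began 152 bases before the start site, a motif found in 4.51% of windows. None of these windows held TGACGTCA (the full CRE, in 1.79% of windows) or the EGR site GCGNGGGCG (in 5.55%). Letters that match are a description of the window and not a site in use.

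**Figure D1:**
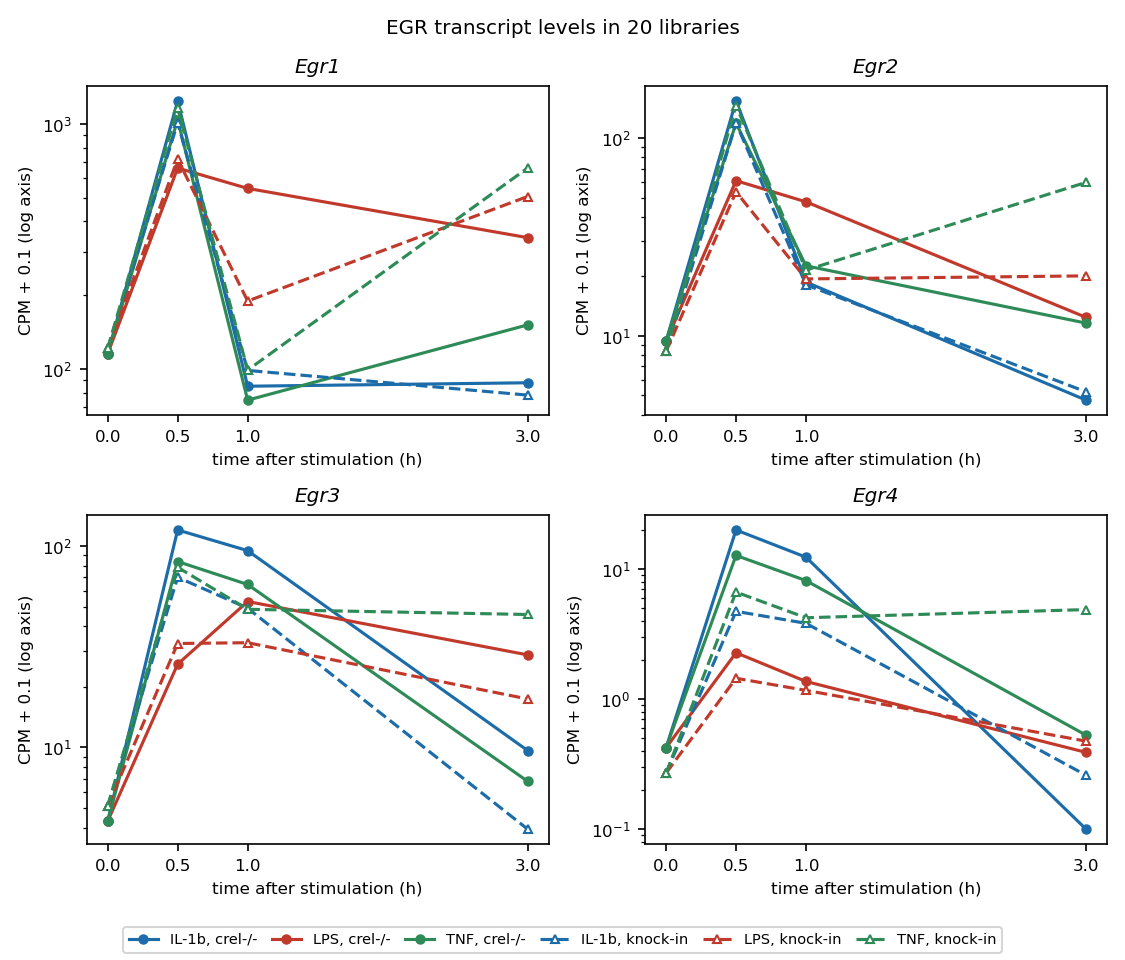
CPM plus 0.1 (log axis) of each EGR gene against hours after stimulation, 1 point per library, with filled circles and solid lines for crel-/- and open triangles and dashed lines for knock-in, coloured by agent. All 4 genes peak at 0.5 h with IL-1b and TNF, Egr1 is near or below its 0 h level at 1 h with these agents while Egr3 stays high, and the knock-in TNF library at 3 h (4.8 CPM for Egr4, 660 CPM for Egr1) lies apart from its crel-/- partner.

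All 4 members rose at 0.5 h, averaged over agents and genotypes and set against 0 h. The fitted log2 changes were 3.01 (SE 0.59, adjusted p = 0.019) for Egr1, 3.52 (SE 0.61, adjusted p = 0.011) for Egr2, 3.72 (SE 0.76, adjusted p = 0.023) for Egr3 and 4.49 (SE 1.14, adjusted p = 0.046) for Egr4, in edgeR's quasi-likelihood test with Benjamini-Hochberg adjustment over all genes tested. Each member exceeded its own genotype's 0 h level in 6 of 6 libraries, and 2.9% of all genes tested were called higher. These calls rest on the 2 libraries at 0 h. Without the crel-/- or the knock-in one, the adjusted p of Egr1 was 0.2 or 0.13, that of Egr2 0.15 or 0.1 and that of Egr3 0.25 or 0.13, with changes of 2.91 or more, and Egr4 lost its call in 17 of 20 fits that left out 1 library. Egr4 was at 0.323 and 0.17 CPM at 0 h, so it met the filter on low counts through stimulated libraries alone. Without that filter Egr4 did not pass. In the 8 libraries of 0 h and TNF alone the changes were 3.21, 3.91, 4.17 and 5.22 for Egr1 to Egr4 (adjusted p 0.44 to 0.57).

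The members parted at 1 h. Between 0.5 and 1 h, averaged over agents, Egr1 fell by 2.73 (SE 0.37, adjusted p = 0.0035) and Egr2 fell by 2.08 (SE 0.35, adjusted p = 0.0099) on the log2 scale. Both falls are between stimulated libraries and passed the test without any 1 of the 20 libraries, and 2.12% of genes were called lower. Within the 8 libraries of 0 h and TNF they were -3.71 (adjusted p = 0.2) and -2.59 (adjusted p = 0.33). The change was -0.14 for Egr3 (SE 0.38, adjusted p = 0.91) and -0.60 for Egr4 (SE 0.50, adjusted p = 0.61). Against 0 h, only Egr3 passed the test at 1 h (3.58, SE 0.76, adjusted p = 0.013), where 7.12% of genes were called higher. Without the crel-/- or the knock-in 0 h library, that adjusted p was 0.15 or 0.082. Egr4 stood at 3.89 (adjusted p = 0.058), Egr2 at 1.44 (adjusted p = 0.14) and Egr1 at 0.28 (adjusted p = 0.77). For IL-1b, LPS and TNF alone, edgeR called 0 of 4 members between 0.5 and 1 h. Of 14023 genes, 31, 16 and 36 were called lower. Members at an unadjusted p under 0.05 numbered 2, 0 and 2, with DESeq2 2, 0 and 2, and with limma-voom 1, 0 and 1. With LPS, Egr1 went from 660 to 545 CPM in crel-/- and from 718 to 189 CPM in knock-in cells. Egr2 went from 60.8 to 47.5 and from 53.4 to 19.3 CPM.

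Between 1 and 3 h the calls fell on Egr3 and Egr4, while Egr2 changed in the same direction without passing. Egr3 fell by 1.80 (SE 0.43, adjusted p = 0.0056) and Egr4 fell by 3.02 (SE 0.87, adjusted p = 0.013), and 25.1% of genes were called lower, the background against which these 2 of 4 stand. Egr4 lost its call without the crel-/- IL-1b 3 h library (-2.62, adjusted p = 0.052). Within the 8 libraries of 0 h and TNF, which include the high knock-in library at 3 h, Egr3 was at -1.28 (adjusted p = 0.38) and Egr4 at -1.22 (adjusted p = 0.44). The change was 0.74 for Egr1 (adjusted p = 0.11) and -0.77 for Egr2 (adjusted p = 0.13), and each of these passed when a library was left out: Egr1 without the crel-/- LPS 1 h or TNF 3 h library (1.11 and 1.00, adjusted p 0.017 and 0.012), Egr2 without the knock-in TNF 3 h library (-1.31, adjusted p = 0.0017). At 3 h against 0 h, 0 of 4 members passed edgeR's test, against 25.5% of all genes called higher. At an unadjusted p under 0.05 the count was 1, and it was 1 with DESeq2 and 0 with limma-voom. Egr3 came nearest, at 1.78 (adjusted p = 0.082).

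The shift between members was also measured within libraries, as the log2 ratio of a pair of members in each of the 6 courses of agent and genotype. From 0.5 to 1 h the ratio of Egr3 to Egr1 rose in 6 of 6 courses, by 2.65 on average (SD 0.87, n = 6, exact sign-flip permutation test, 2-sided p = 0.0312, adjusted p = 0.075), and that of Egr3 to Egr2 in 6 of 6 by 1.97 (SD 0.48, n = 6, exact p = 0.0312, adjusted p = 0.075). The ratio of Egr2 to Egr1 was higher at 1 h in 5 of 6 courses, by 0.68. From 1 to 3 h the ratios of Egr2, Egr3 and Egr4 to Egr1 were lower in 6 of 6 courses each, by means of -1.56, -2.71 and -3.36 (exact p = 0.0312 and adjusted p = 0.075 for each). Those of Egr3 and Egr4 to Egr2 had means of -1.15 and -1.8 (exact p = 0.0938 and 0.0625). Each of these was higher in 1 of 6 courses. With 6 courses 0.0312 is the smallest p the test allows, and none of the 12 ratios passed after adjustment.

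Levels per length (RPKM) allow members to be compared with each other. At 0 h Egr1 was at 25.7 and 26.9 RPKM and made up 81.4% and 81.7% of the summed level of the 4 genes, Egr2 was at 2.73 and 2.42 RPKM, Egr3 at 2.96 and 3.54 RPKM and Egr4 at 0.15 and 0.0791 RPKM. At 0.5 h Egr1 made up 66.5% to 80.3% in the 6 libraries. At 1 h it made up 19.5% and 34.5% with IL-1b and 22.9% and 34.1% with TNF, and Egr3 made up 68.9% and 54.5%, and 62.7% and 53.1%. With the deposited lengths, Egr3 was the leading member in these 4 libraries. With the GENCODE M21 length of Egr3 and the same counts, it led in 1 of the 4, crel-/- cells with IL-1b (41.6% against 36.6% for Egr1), and held 26.6% to 35.1% in the other 3 against 39.9% to 54.7% for Egr1. Those counts go with the shorter deposited model. Dividing them by the longer length understates Egr3 if reads in the rest of the transcript were left out. The change of length therefore cannot decide which member led. With LPS at 1 h Egr1 still led, at 70.1% and 58.8% against 21.5% and 32.5% for Egr3. The share of Egr3 at 0 h was 9.41% and 10.7%, or 3.23% and 3.71% with the longer model, so its share was higher at 1 h of IL-1b and TNF than at 0 h with either length.

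**Figure D2:**
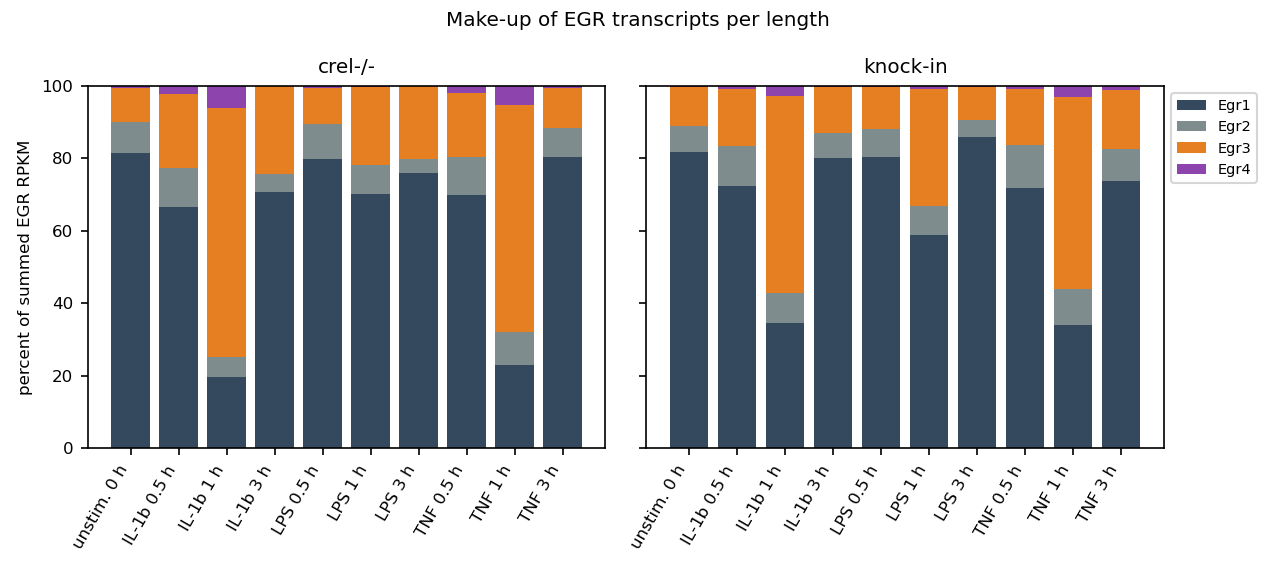
Percent of the summed EGR RPKM held by each member in each condition, for crel-/- (left) and knock-in libraries (right), 1 library per bar. Egr1 holds 81.4% and 81.7% at 0 h, and with the deposited lengths Egr3 holds more than Egr1 at 1 h of IL-1b and TNF (68.9% against 19.5% in crel-/- cells with IL-1b). The order remains in 1 of these 4 libraries when the same counts are divided by the longer GENCODE M21 length of Egr3. That division cannot decide the order, since the counts may lack reads from the rest of the longer model.

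The members called were then counted for each agent against 0 h. With IL-1b 4 of 4 members rose at 0.5 h (5.75% of genes called higher) and 2 of 4 at 1 h (8.38%), Egr3 by 3.94 (SE 0.82, adjusted p = 0.012) and Egr4 by 4.91 (SE 1.18, adjusted p = 0.019). At 3 h of IL-1b 0 of 4 passed in edgeR, where 16.9% of genes were called higher, and the count was also 0 at an unadjusted p under 0.05, with DESeq2 and with limma-voom. With LPS, Egr1 (2.55, SE 0.63, adjusted p = 0.045) and Egr2 (2.70, SE 0.66, adjusted p = 0.044) rose at 0.5 h (3.56% of genes). Egr3 rose at 1 h of LPS (3.20, SE 0.84, adjusted p = 0.032), where 7.58% of genes did. At 3 h of LPS, Egr1 (1.83, SE 0.62, adjusted p = 0.028) and Egr3 (2.30, SE 0.88, adjusted p = 0.047) were higher than at 0 h, at a background of 29.2%. With TNF the test called Egr2 at 0.5 h (3.91, SE 0.67, adjusted p = 0.049, 0.314% of genes), Egr3 at 1 h (3.60, SE 0.83, adjusted p = 0.043, 2.25% of genes) and Egr2 and Egr3 at 3 h (1.98 and 2.55, adjusted p 0.046 and 0.043, 18.7% of genes). Every one of these 15 calls was lost in at least 1 fit that left out a library, and the 2 calls at 3 h of TNF fell to 0.31 and 0.30 without the knock-in TNF 3 h library. The members not called at 0.5 h of TNF stood at 3.22 (Egr1, adjusted p = 0.09), 4.13 (Egr3, 0.086) and 5.22 (Egr4, 0.11). The counts depended on the tool: at 0.5 h of TNF DESeq2 called 4 members and limma-voom 0, at 3 h of TNF they called 4 and 0, and at 1 h of LPS 3 and 0.

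LPS gave the lowest levels at 0.5 h for all 4 members, and the highest levels of Egr1 at 1 h. The differences were not called: 0 of 4 members passed edgeR's test for LPS against IL-1b or TNF at 0.5 h (0.0499% and 6.15% of genes called in either direction) or at 1 h (1.12% and 13.4%). At an unadjusted p under 0.05 these counts were 2, 1, 2 and 2, with DESeq2 0, 0, 1 and 1, and with limma-voom 0 in each. At 1 h Egr1 was 2.13 higher with LPS than with TNF (95% interval 0.90 to 3.37, adjusted p = 0.053) and 2.05 higher than with IL-1b (0.82 to 3.27, adjusted p = 0.19). Egr4 differed the other way, at -2.36 (-4.25 to -0.48, adjusted p = 0.14) and -2.71 (-4.53 to -0.89, adjusted p = 0.23). The fall of Egr1 from 0.5 to 1 h was smaller with LPS by 2.80 than with TNF (interval 1.12 to 4.49, adjusted p = 1) and by 2.77 than with IL-1b (1.08 to 4.45, adjusted p = 0.53), and neither difference passed.

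Differences between agents were called at 3 h. Those between IL-1b and TNF also cross the split in marker levels, so agent and state cannot be told apart in them. Egr1 was 2.34 higher with LPS than with IL-1b (SE 0.63, adjusted p = 0.012), the 1 member of 4 called where 23.8% of genes were called higher. Egr1 and Egr2 were lower with IL-1b than with TNF, at -2.24 (SE 0.63, adjusted p = 0.04) and -2.83 (SE 0.74, adjusted p = 0.029), 2 of 4 members against 7.93% of genes called lower. Without the knock-in TNF 3 h library these values were -0.86 (adjusted p = 0.37) and -1.15 (adjusted p = 0.24). From 1 to 3 h of IL-1b, Egr3 fell by 3.45 (SE 0.79, adjusted p = 0.016) and Egr4 fell from 153 and 42 to 0 and 2 counts (adjusted p = 0.014), 2 of 4 members against 7.64% of genes. From 1 to 3 h of TNF, Egr1 rose by 2.19 (SE 0.63, adjusted p = 0.034), 1 of 4 against 12.2% of genes, and by 0.78 (adjusted p = 0.34) without the knock-in 3 h library. Without that library Egr3 and Egr4 fell over the same interval, by 3.31 (adjusted p = 0.0037) and by 4.33 (adjusted p = 0.0025).

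Over the 10 matched pairs of libraries, 0 of 4 members differed between the genotypes in edgeR's test, where 15.8% of genes were called in either direction. The count was also 0 at an unadjusted p under 0.05, with DESeq2 and with limma-voom. The knock-in minus crel-/- difference was 0.16 for Egr1 (95% interval -0.39 to 0.70, adjusted p = 0.76), 0.10 for Egr2 (-0.47 to 0.66, adjusted p = 0.87), -0.22 for Egr3 (-0.86 to 0.42, adjusted p = 0.72) and -0.87 for Egr4 (-1.68 to -0.05, adjusted p = 0.2). Egr4 was lower in the knock-in in 7 of 10 pairs and Egr3 in 7, while Egr1 was higher in 7 and Egr2 in 4. For Egr4 the pairs at 0 h and at 3 h of IL-1b and LPS had too few counts to give a direction. Its pair at 1 h of LPS, with 13 and 10 counts, was too close to give a direction. The unweighted mean of the 10 differences in log2 CPM was smaller for Egr4, at -0.28 (SD 1.44, exact sign-flip permutation test, p = 0.568, adjusted p = 0.71). It was 0.17 for Egr1, 0.13 for Egr2 and -0.16 for Egr3 (adjusted p = 0.71 for each). Without 1 library at a time the fitted difference turned sign for Egr1 (-0.05 to 0.34) and Egr2 (-0.15 to 0.26), and lay between -0.49 and -0.12 for Egr3. Leaving out 1 library of the TNF 3 h pair, which drops the pair from the comparison, moved Egr4 to -1.26 (adjusted p 0.0014 or 0.0013).

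Within a time, Egr4 was the 1 member that edgeR called between genotypes. The calls depended on the tool: DESeq2 called 0 members at 0.5 h and 2 at 3 h, Egr2 among them, and limma-voom 1 and 0. At 0.5 h Egr4 was lower in the knock-in in 3 of 3 pairs, by 1.39 on the log2 scale (fitted difference -1.39, SE 0.29, adjusted p = 0.031), 1 of 4 members against 1.32% of genes called lower. DESeq2 gave -1.30 with an adjusted p of 0.11. The call was lost without any 1 of the 6 libraries at 0.5 h, with values from -1.73 (TNF) to -0.88 (IL-1b), and without either TNF 1 h library (-1.39, adjusted p = 0.055). At 1 h Egr4 was at -1.22 (SE 0.32, adjusted p = 0.069), again lower in 3 of 3 pairs, though LPS had 13 and 10 counts, too close to give a direction. At that time 0 of 4 members passed against 2.02% of genes. The count at an unadjusted p under 0.05 was 1, and it was 0 with DESeq2 and limma-voom. The pairs under IL-1b differed most, at -2.06 and -1.67 at 0.5 and 1 h, followed by those under TNF at -0.93 and -0.94 and under LPS at -0.62 and -0.21.

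At 3 h the fitted sign was the opposite. Egr4 was higher in the knock-in by 2.99 (SE 0.71, adjusted p = 0.015), 1 of 4 members against 8.2% of genes called higher. This value came from the TNF pair alone, with 5 and 50 counts, since the IL-1b and LPS pairs had 0 and 2, and 2 and 3 counts, too few to give a direction. Without either library of the TNF pair it was 1.02 (adjusted p = 0.72). The difference at 3 h exceeded that at 0.5 h by 4.37 (SE 0.75, adjusted p = 0.012), 1 of 4 members against 1.68% of genes, and by 2.41 or 2.42 (adjusted p = 0.47) without a TNF 3 h library.

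**Figure D3:**
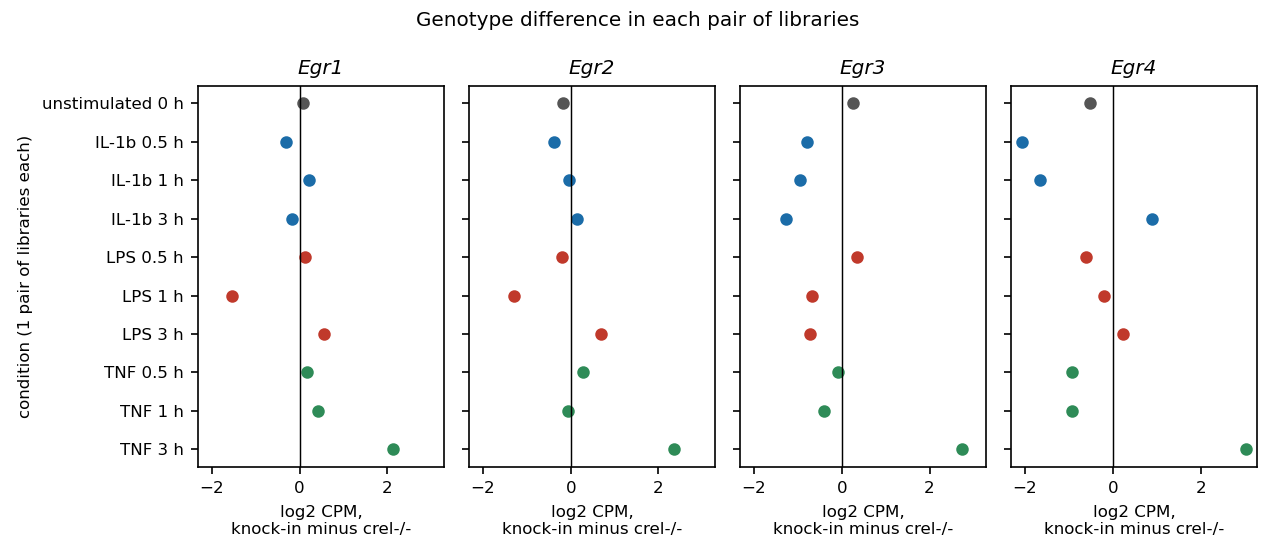
Knock-in minus crel-/- difference in log2 CPM (prior count 2) of each EGR gene in each of the 10 pairs of libraries, coloured by agent. Egr4 lies to the left of 0 at 0.5 and 1 h in all 6 pairs, though its LPS 1 h pair (13 and 10 counts) is too close to give a direction. The TNF 3 h pair lies between 2.12 and 3.03 for all 4 genes.

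In the TNF 3 h pair, all 4 members were higher in the knock-in by at least 1 on the log2 scale, by 2.12 for Egr1, 2.36 for Egr2, 2.74 for Egr3 and 3.03 for Egr4. Of all genes tested, 2.87% were higher by as much. A list of 26 immediate early genes, drawn up as SRF-driven, had 12 such members in this pair and a median of 0.88. They were led by the nuclear receptor gene Nr4a1 (3.26), the synaptic plasticity gene Arc (2.91) and the AP-1 gene Fosb (2.66). Whether SRF drives each listed gene in these cells was not tested. With 1 library a side there is no test, and these values compare libraries and not genotypes. Macrophage markers summed to 6090 CPM in the crel-/- and 5910 CPM in the knock-in library, Schwann cell and neural crest markers to 84.1 and 71.1 CPM, and epithelial markers to 6.69 and 7.59 CPM. Endothelial markers summed to 13.4 and 24.6 CPM and skeletal muscle markers to 22.3 and 28.9 CPM, higher in the knock-in library. Of the 8 muscle markers, 4 were at 0 in each library. The part of these markers in the EGR values was not tested. In the LPS 1 h pair the difference went the other way for Egr1 (-1.53) and Egr2 (-1.29), 2 of 4 members against 2.39% of genes lower by at least 1, with Egr3 at -0.68 and Egr4 at -0.21. There 6 of the 26 early genes were lower by at least 1, led by Ier3 (-2.96), Ier2 (-1.89) and Zfp36 (-1.51).

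**Figure D4:**
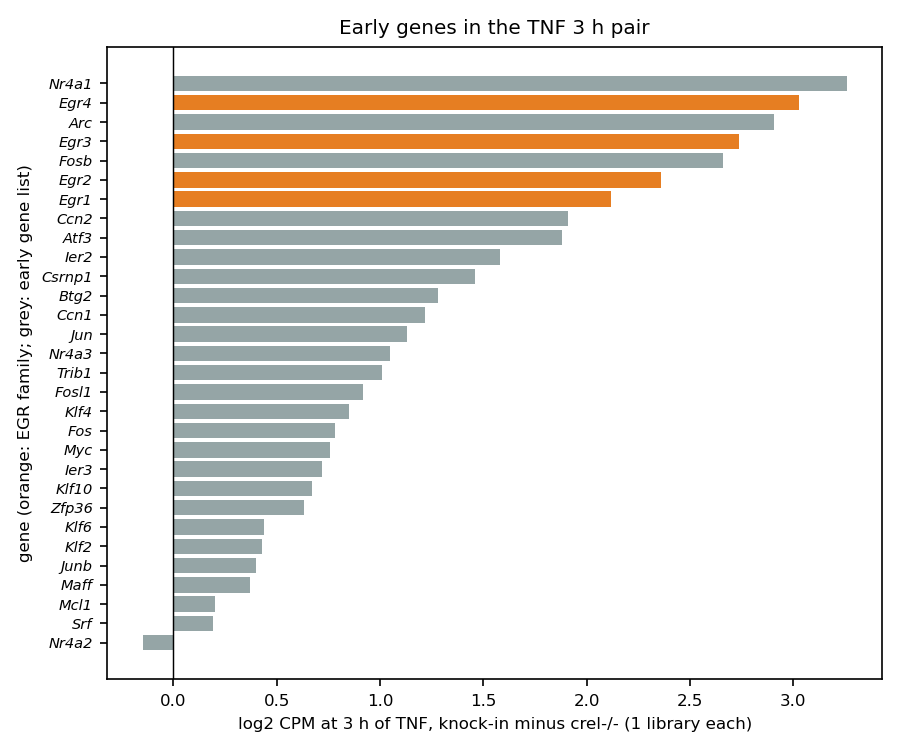
Knock-in minus crel-/- difference in log2 CPM at 3 h of TNF, 1 library each, for the 4 EGR genes (orange) and the 26 listed early genes (grey), ordered by value. The EGR genes lie between 2.12 and 3.03, among the highest values together with Nr4a1 (3.26), Arc (2.91) and Fosb (2.66).

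Across the 20 libraries Egr1 was most like Egr2, and Egr3 most like Egr4. Pearson's r of log2 CPM was 0.868 between Egr1 and Egr2 and 0.884 between Egr3 and Egr4, against 0.498 between Egr1 and Egr3, 0.397 between Egr1 and Egr4, 0.777 between Egr2 and Egr3 and 0.773 between Egr2 and Egr4. These coefficients describe 20 libraries that share agents, genotypes and time points. The non-member genes most like Egr1 were Ier2 (r = 0.942) and the AP-1 gene Fos (0.937), then Ppp1r15a (0.860), the ERK inhibitor Spry2 (0.858) and Klf2 (0.858). For Egr2 they were Btg2 (0.933), Ier2 (0.923), the matricellular gene Ccn1 (0.918), Klf2 (0.916) and Nr4a1 (0.855). For Egr3 they were the heat shock gene Hspa1a (0.890), Nr4a1 (0.890), Fosb (0.865), Nr4a3 (0.861) and the MAP kinase phosphatase gene Dusp8 (0.848). Those most like Egr4 were Nr4a1 (0.913), Dnajb4 (0.909), Mex3b (0.901), Fosb (0.865) and Dlc1 (0.840).

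Most of the 26 listed early genes moved with the family at 0.5 h. Of 26 tested, on a list chosen with earlier results of these data known, 22 rose and 0 fell. At that time 2.9% of all genes rose and 2.53% fell. The 26 had a median of 2.72, against 0 over all genes and 3.62 over the 4 EGR genes. They were led by Fosb (4.79), Nr4a1 (4.48) and Nr4a3 (4.09). From 0.5 to 1 h, 10 of the 26 fell and 2 rose, where 2.12% of all genes fell and 2.78% rose, with Fos (-3.32), Ccn1 (-2.17) and Ier2 (-2.08) falling most, as Egr1 and Egr2 did. From 1 to 3 h, 10 fell and 3 rose, against 25.1% and 26.3% of all genes, led by Fosb (-3.53), Nr4a1 (-3.50) and Nr4a3 (-1.91), beside the falls of Egr3 and Egr4. Of 16 feedback inhibitors of ERK signalling, 3 rose at 0.5 h, the phosphatase genes Dusp1 (4.14), Dusp8 (2.43) and Dusp5 (2.26), and 1 fell, against 2.9% and 2.53% of all genes. Of 22 genes of the ERK pathway itself, 1 rose at 0.5 h, Shc1 (0.21), and 1 fell, near the same shares of all genes. Over the 10 pairs 2 of the 22 were called, where 15.8% of all genes were, among them Map3k8, a kinase gene upstream of ERK (-1.18).

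The NAB co-repressor genes were called at later times than the EGR genes. Nab2 (ENSMUSG00000025402.10, chromosome 10, 127660918 to 127668568, minus strand) stood at 92 and 110 CPM at 0 h and, at 1 h, at 184 and 176 CPM with IL-1b, 157 and 136 CPM with LPS and 208 and 221 CPM with TNF. All 6 libraries at 1 h lay above both at 0 h. At 0.5 h Nab2 was at 132 and 143 CPM with IL-1b and 133 and 136 CPM with TNF, already above both at 0 h. With LPS it was at 99.8 and 96 CPM at 0.5 h. Nab2 had not passed the test at 0.5 h (0.27, adjusted p = 0.34), rose at 1 h (0.83, SE 0.15, adjusted p = 0.0046) and fell by 0.56 from 1 to 3 h (SE 0.10, adjusted p = 0.00078). It overlaps Stat6, Nemp1 and Gm16229, so its counts are uncertain where the authors' strand setting is unknown. Nab1 (ENSMUSG00000002881.12, chromosome 1, 52457294 to 52500679, minus strand) stood at 64 and 60.5 CPM at 0 h and at 3 h at 97.8 and 63 CPM with IL-1b, 153 and 107 CPM with LPS and 125 and 86.8 CPM with TNF. It rose at 3 h (0.72, SE 0.14, adjusted p = 0.0013), where 25.5% of all genes were called higher. Nab1 was lower in the knock-in over the 10 pairs (-0.24, SE 0.07, adjusted p = 0.045) and at 3 h (-0.56, SE 0.07, adjusted p = 0.00023, lower in 3 of 3 pairs). Of 14023 genes, 1095 were called lower in the knock-in over the pairs and 1171 at 3 h.

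**Figure D5:**
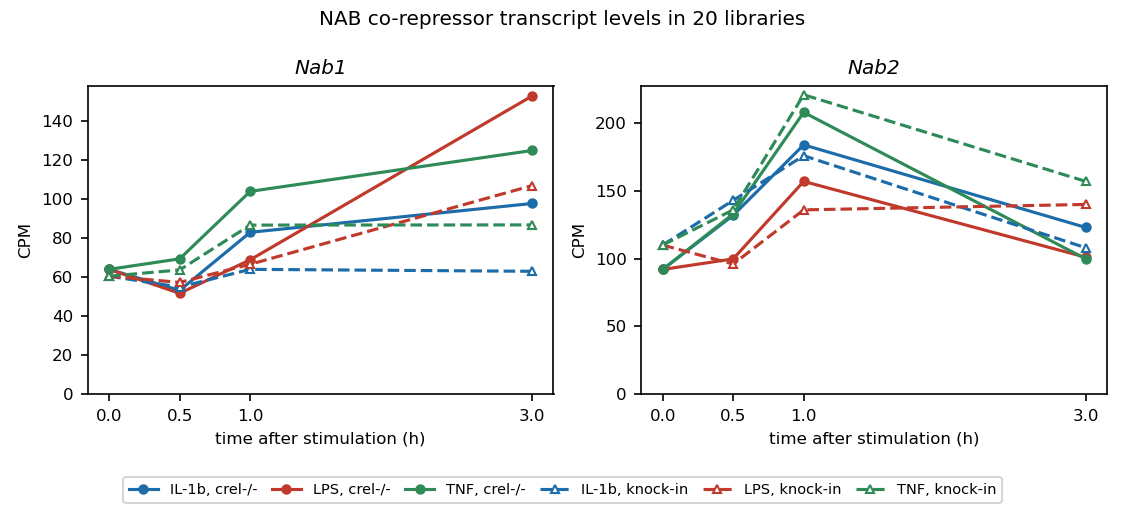
CPM of Nab1 and Nab2 against hours after stimulation, 1 point per library, with filled circles and solid lines for crel-/- and open triangles and dashed lines for knock-in, coloured by agent. Nab2 is highest at 1 h with IL-1b and TNF in both genotypes (208 and 221 CPM with TNF), and Nab1 at 3 h is lower in the knock-in with each agent.

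Of 21 textbook EGR targets that were tested, 0 rose and 1 fell at 0.5 h (2.9% of all genes rose and 2.53% fell), and 3 rose and 1 fell at 1 h (7.12% and 6.7%). At 3 h 9 rose and 3 fell (25.5% and 24.5%). These counts lie within a few genes of the background, and they are given as a description of the list. Those called at 1 h were led by the protease gene Plau (1.54), Nab2 (0.83) and the growth factor gene Vegfa (0.68). At 3 h they were led by the death ligand gene Tnfsf10 (4.48), the cytokine signalling inhibitor gene Socs1 (2.93) and the hyaluronan receptor gene Cd44 (2.04). The means of the first pair are carried by LPS: Tnfsf10 stood at 8.78 with LPS, 2.30 with TNF and 2.35 with IL-1b (adjusted p = 0.068 for each of the latter), and Socs1 at 6.12, 1.36 and 1.30. Several of these genes are also known as targets of NF-kB or interferon. Over the 10 pairs 1 target was higher in the knock-in, Thbs1 (0.58), and 2 were lower, Ptges (-1.01) and Plau (-0.65), 3 of 21 where 15.8% of all genes were called.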

How the data were processed

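Poly(A) RNA of 20 libraries was sequenced from a stranded kit with single-end reads, per the labels' protocols. The authors deposited whole-number counts per gene, with gene positions and exon lengths. Per the submitters' processing notes, the tools were cutadapt 1.12, STAR, featureCounts 1.5.1 and DESeq2, on mm10, with the handling of strand and of multi-mapping reads and the annotation release not given in the sources used here. RPKM was computed from CPM and the deposited exon length. Symbols matched 45143 of 45706 genes (98.8%).

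Columns were matched to libraries by genotype, agent and hours. The 14023 genes that reached 1 CPM in 2 or more libraries were tested with edgeR 4.0.16 (R 4.3.3, TMM scaling, robust quasi-likelihood F test, Benjamini-Hochberg adjustment over all of them, threshold 0.05). Responses and the difference over 10 pairs came from a model with condition and genotype. Genotype differences at a time came from a model with condition and genotype within each time. SE was taken from the change and its F value. The 95% intervals are 1.96 SE, a normal approximation that is narrower than the F test allows with few residual degrees of freedom. An interval can therefore leave out 0 where the test did not pass. Log2 CPM used a prior count of 2. The floor of 3 counts covers counting error alone, as reads had no molecular identifiers. The statistics were tested on simulated data. Alternatives were DESeq2 1.42.0, limma-voom (limma 3.58.1), other scaling, no filter and leaving out libraries. For the 10 pairs an exact sign-flip permutation test was a further alternative. The members, lists and tests were chosen with earlier results of these data known. The named genes are the 4 members, Nab1 and Nab2, the 5 genes with the highest r with each member, and up to 3 called genes of each list with the greatest change. The comparisons of single pairs, member ratios, the change from 0.5 to 1 h between agents, the libraries of 0 h and TNF alone and the longer model of Egr3 were added after the values were seen.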

Additional observations from a re-analysis of the deposited data

Results flagged for a closer look

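The genotype difference of Egr4 changed with time: knock-in minus crel-/- at 3 h exceeded that at 0.5 h by 4.37 in log2 units (edgeR's quasi-likelihood test, SE 0.75, adjusted p = 0.012). The knock-in was lower in 3 of 3 pairs at 0.5 h, while at 3 h 1 pair, that of TNF, had enough counts to give a direction. The value was 2.41 or 2.42 (adjusted p = 0.47) without a library of it. Of 36 tests of such differences between times or agents over the 4 members, this was the 1 that passed.

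For Nab1 the genotype difference at 3 h lay below that at 0.5 h, by -0.58 (SE 0.10, adjusted p = 0.01). Its pairs ran from -0.12 to 0.15 at 0.5 h and from -0.63 to -0.51 at 3 h. Without any 1 of the 4 libraries at 0.5 h of IL-1b or LPS, the adjusted p was between 0.056 and 0.063.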

How the results depend on the processing

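Depth limits Egr4 most, with 0 to 5 counts in 7 of 20 libraries. Libraries were paired by condition, and no block by replicate could be fitted because the labels give no replicate numbers. The falls of Egr1 and Egr2 from 0.5 to 1 h, averaged over agents, passed in edgeR without any 1 library. They also passed with DESeq2, limma-voom, other scaling and no filter. They did not pass in edgeR for any agent alone. Nor did they pass in the 8 libraries of 0 h and TNF alone, where there are fewer samples: -3.71 for Egr1 (adjusted p = 0.2) and -2.59 for Egr2 (0.33). In those 8 libraries the changes at 0.5 h were 3.21, 3.91, 4.17 and 5.22 for Egr1 to Egr4, Egr3 was at 3.65 at 1 h, and the changes from 1 to 3 h were -1.28 for Egr3 and -1.22 for Egr4, none past the threshold. There the test called 48 genes up and 3 down at 0.5 h, and 338 up and 244 down at 1 h, while 424 were up and 408 down in the knock-in over the pairs.

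Scaling by library totals, which moved the median of all genes by -0.62 for LPS 3 h against 0 h, gave 794 lower genes at 0.5 h, 2586 at 1 h, and 1578 higher and 7360 lower at 3 h, and Egr4 at 1 h passed (3.78). With DESeq2, Egr4 at 1 h (3.95), Egr2 at 1 h (1.44), Egr3 at 3 h (1.79) and the Egr2 genotype difference at 3 h (1.11) passed, and the Egr4 genotype difference at 0.5 h (-1.30) did not. With limma-voom, Egr3 (3.71) and Egr4 (4.28) at 0.5 h and the Egr4 genotype difference at 3 h (2.59) did not pass. Egr4 at 0.5 h did not pass with no filter (4.48) or without both LPS 3 h libraries (4.49). The cause of these shifts was not tested.

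Without 1 library at a time, the changes at 0.5 h ranged from 2.91 to 3.09 for Egr1, 3.38 to 3.67 for Egr2, 3.47 to 3.97 for Egr3 and 4.15 to 4.67 for Egr4. Those at 1 h ranged from 1.13 to 1.65 for Egr2, 3.33 to 3.83 for Egr3 and 3.66 to 4.02 for Egr4, and those at 3 h from 0.55 to 1.27 for Egr1, 0.13 to 0.97 for Egr2 and 1.02 to 2.10 for Egr3. From 1 to 3 h the ranges were 0.28 to 1.11 for Egr1, -1.31 to -0.47 for Egr2 and -4.21 to -2.53 for Egr4. The Egr4 genotype difference ranged from -1.26 to -0.57 over the pairs, -1.73 to -0.88 at 0.5 h, 1.02 to 3.47 at 3 h and 2.41 to 4.87 for 3 h minus 0.5 h. Egr3 with LPS minus TNF at 3 h ranged from -1.26 to 1.99, turning from -0.25 to 1.99 (adjusted p = 0.0095) without the knock-in TNF 3 h library. At 0.5 h, 39 to 518 genes were called higher and 21 to 478 lower. At 1 h these ranges were 227 to 1209 and 124 to 1140, and at 3 h they were 2119 to 3740 and 1920 to 3613.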
